A study of Mus musculus with 12 samples.

Results

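Kidneys of Alport mice given losartan were compared with kidneys of wild type mice given vehicle, to ask how much of the difference between diseased and healthy tissue was still measurable under the drug. The 6 samples, 3 in each group, were taken by their titles from a series of 12 samples, and all 22206 probe sets of the array were tested. Alport syndrome is an inherited kidney disease in which the type IV collagen network of the glomerular basement membrane is defective, and it leads from leakage of blood and protein to tubular injury, inflammation and scarring. Losartan blocks the type 1 receptor of angiotensin II, which lowers the pressure in the glomerulus and is used to slow the loss of kidney function. In a failing kidney, injured tubule cells switch on repair and adhesion genes, fibroblasts lay down interstitial collagen, and the transport and metabolic genes of the proximal tubule decline.

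Whole-kidney RNA was hybridised to Affymetrix Clariom S arrays, which give 1 value per probe set on a log2 scale. Both groups were stated to be 16 weeks old. The wild type mice received vehicle, and the losartan mice were hemizygous for a nonsense change (G5X) of Col4a5, a chain of type IV collagen. Losartan was given in drinking water at 125 µg/mL from week 6 to 11 and at 250 µg/mL from week 12 to 20, an interval that runs past the stated age, and the labels speak of co-administration, so the group is defined here by its sample titles. Alport mice of the same genotype given vehicle (3 samples) and others given metformin (3 samples) served to estimate the spread, and the vehicle values are set beside those of losartan for orientation. Nothing in the labels states that each sample was a different mouse. The p-values thus rest on the spread seen among these arrays, part of which may be technical. In whole tissue, fewer cells of a type and less RNA per cell cannot be told apart. The series held no wild type mice given losartan, and the compared groups differ in both genotype and drug. An effect of losartan itself therefore cannot be told apart from disease left under it.

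The 6 samples were alike in scale. Their medians lay between 5.88 and 5.95, and pairwise correlations taken over all probe sets (as a description, since probe sets are not replicates) were 0.993 to 0.994 within both groups and 0.990 to 0.992 between them. The median difference of losartan minus wild type over all probe sets was -0.0033, and its median standard error was 0.198. Losartan sample 1 had the highest mean level of the injury, matrix and macrophage genes described below and the lowest mean level of the proximal tubule genes. Col4a5 checks the labels only weakly because its signal was low.

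Losartan-treated Alport kidneys still differed from wild type in 122 probe sets (limma, Benjamini-Hochberg adjusted p under 0.05), or 0.549% of those tested. Of these, 89 were higher (0.401%) and 33 lower (0.149%) than in wild type. At least 2-fold differences were reached by 75 of the higher and 21 of the lower probe sets, and at least 4-fold differences by 24 and 0. The higher probe sets had a median difference of 1.44 and the lower ones of -1.05. The same probe sets differed between Alport vehicle and wild type by medians of 2.61 and -1.14, in a comparison that shares the wild type samples. In all 122 probe sets the 3 losartan samples lay outside the range of the 3 wild type samples. The same held for 3714 of all 22206 probe sets, so a lack of overlap is not rare in itself. For 20453 probe sets (92.1%) the 95% interval of the difference lay within 2-fold in either direction. The count depends on how the spread is estimated: a fit of only the 6 samples compared called 285 probe sets, and leaving out 1 sample at a time gave 37 to 62.

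**Figure D1:**
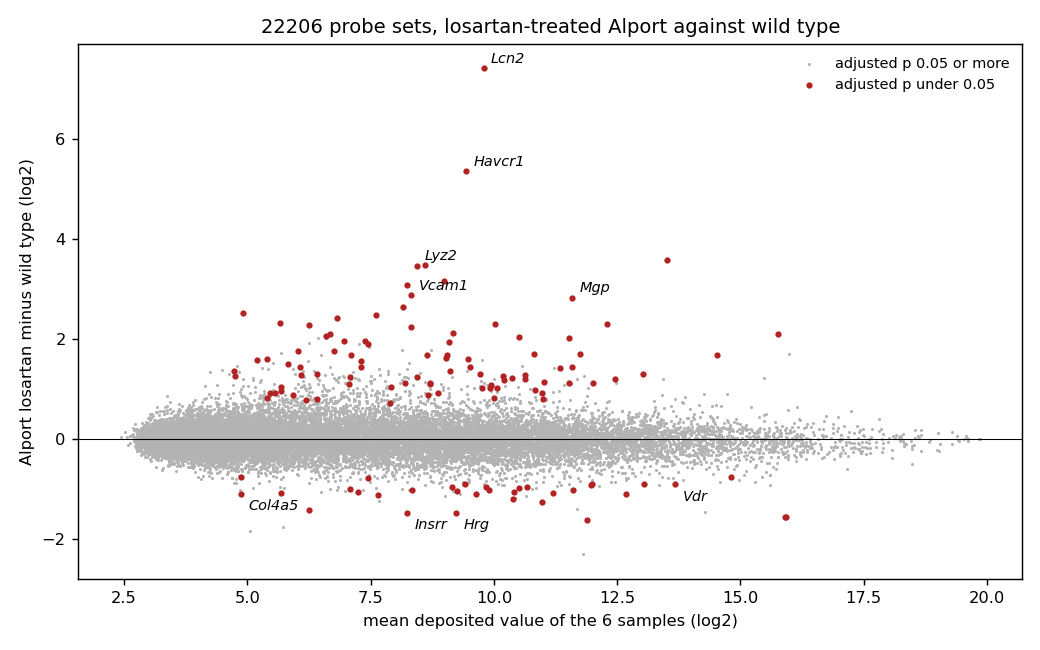
Each point is 1 of the 22206 probe sets, with the mean deposited value of the 6 samples (log2) on the horizontal axis and the log2 difference of losartan-treated Alport minus wild type on the vertical axis. Red points are the 122 probe sets with an adjusted p under 0.05; Lcn2 and Havcr1 stand highest, at 7.40 and 5.35, and no red point below 0 reaches -2.

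A single symbol was available for 108 of the 122 probe sets, 80 higher and 28 lower. The genes nearest to the threshold on its inner side were Fgfr3, Dhrs1 and Endod1, with differences of -0.97, -0.77 and 0.77, and the nearest on its outer side were Pip4k2a, Rgs19 and Ice2, with 0.90, 0.70 and -1.07. Folds of the 22 higher probe sets whose wild type mean lay below the median of every sample are uncertain in size, since these values were dim.

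Markers of tubular injury held the largest differences. Of 28 measured genes of tubular injury and failed repair, 7 were higher than in wild type and 0 lower, beside 0.401% of all probe sets higher, and the median difference of the list was 0.95 (2.49 in Alport vehicle). The 7 were Lcn2, Havcr1, Vcam1, Vim, Cp, Anxa1 and Anxa2. The mean level of the list was 8.15 to 8.23 in wild type, 9.30 to 9.74 with losartan and 10.54 to 11.30 with Alport vehicle, with no overlap between these groups. A fit of only the 6 samples called 12 of the 28 higher, beside 221 of all 22206 probe sets. Fits without 1 sample called 3 to 4 of the 28.

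Lcn2 encodes neutrophil gelatinase-associated lipocalin, which binds bacterial siderophores and is released by injured tubules. Its log2 values were 6.05, 6.20 and 6.02 in wild type, 15.55, 13.13 and 11.80 with losartan and 15.46, 14.23 and 15.72 with Alport vehicle. Losartan sample 1 reached the level of the vehicle samples, while samples 2 and 3 lay below all of them and far above wild type. The difference from wild type was 7.40 ± 0.68 (SE, n = 3 per group), or 169-fold (limma adjusted p = 5.76e-05). It was 83.0-fold without losartan sample 1 and 304-fold without losartan sample 3, and the call held in all 6 fits without 1 sample.

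Havcr1, the injury receptor KIM-1 of the proximal tubule, read 7.21, 6.71 and 6.36 in wild type and 12.91, 11.45 and 11.97 with losartan. The difference of 5.35 ± 0.56 corresponded to 40.8-fold (limma adjusted p = 0.000155) and was called under every alternative setting. In Alport vehicle the 3 values were 15.68, 13.66 and 13.80, all above the losartan samples.

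The adhesion molecule Vcam1, expressed by tubule cells that fail to repair and by activated endothelium, was almost constant within wild type and within losartan. It read 6.96, 6.82 and 6.90 in wild type and 9.75, 9.74 and 9.80 with losartan, a difference of 2.87 ± 0.53 or 7.31-fold (limma adjusted p = 0.0221). The call was lost in each of the 6 fits that left out 1 sample (adjusted p 0.0679 to 0.117). For this gene the Alport vehicle samples ranged from 11.75 to 13.16 and the metformin samples from 9.12 to 12.25. Both groups share in the estimate of the spread. In the fit of only the 6 samples the limma adjusted p was 6.40e-06.

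Vim, the intermediate filament vimentin of mesenchymal and dedifferentiated cells, was 4.07-fold higher (2.02 ± 0.30, limma adjusted p = 0.00521), with 9.60, 9.19 and 9.70 in wild type against 11.80, 11.32 and 11.44. Cp, the copper-carrying ferroxidase ceruloplasmin, was 3.25-fold higher, with 10.91, 10.96 and 10.83 against 12.78, 12.49 and 12.53. Anxa2, a calcium-dependent membrane-binding protein, was 3.19-fold higher, with 7.93, 7.86 and 7.60 against 9.61, 9.51 and 9.29. The groups of 3 were separated by more than 1 log2 unit for all of these genes. Anxa1, a related annexin, differed by 1.67 ± 0.35. The calls of Cp and Anxa1 were lost in all 6 fits without 1 sample (limma adjusted p 0.102 to 0.187 and 0.111 to 0.180) and that of Anxa2 without wild type sample 2 or 3 or losartan sample 1 or 2 (up to 0.117). Among the 21 members that were not called, the hyaluronan receptor Cd44 had a difference of 1.91 (limma adjusted p = 0.18), the chaperone clusterin (Clu) 1.21 and the progenitor factor Sox9 1.02.

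The promoters of Lcn2, Anxa2 and Cp are printed as examples to be read against motifs of injury-responsive factors. They were chosen among the called injury genes because they hold matches, so the presence of these matches is not a result. For 20 of the 28 injury genes a promoter was matched by symbol in RefSeq (GRCm38.p6). Each line gives the 250 bases upstream of the transcription start in the direction of the gene, with the matches in capitals. In Lcn2 these are GGACTACCCC at 102 to 93 bases upstream and TTGCTCAA at 216 to 209. Both match when read on the opposite strand. GGACTACCCC then fits the NF-kappaB-type motif GGG, any 5 bases and CC, and TTGCTCAA the C/EBP-type TTNNGNAA. In Anxa2 and Cp they are the AP-1 element TGANTCA, as TGAGTCA at 95 to 89 and as TGATTCA at 177 to 171 bases upstream. Cp also holds TTTCTAAA, a TTNNGNAA match on the opposite strand, at 206 to 199, and of its 2 start sites in the table the one with TGANTCA is shown.
Lcn2, chr2:32387740-32387989, minus strand: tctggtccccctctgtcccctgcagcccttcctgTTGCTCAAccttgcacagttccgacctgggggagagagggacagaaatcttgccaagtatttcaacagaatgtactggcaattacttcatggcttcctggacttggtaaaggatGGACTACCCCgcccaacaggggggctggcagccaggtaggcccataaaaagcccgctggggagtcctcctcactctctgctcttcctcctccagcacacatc
Anxa2, chr9:69453433-69453682, plus strand: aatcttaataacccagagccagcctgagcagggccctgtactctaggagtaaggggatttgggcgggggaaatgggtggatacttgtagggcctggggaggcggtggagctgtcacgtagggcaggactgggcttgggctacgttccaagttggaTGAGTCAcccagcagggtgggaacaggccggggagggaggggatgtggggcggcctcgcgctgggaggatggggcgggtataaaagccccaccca
Cp, chr3:19956804-19957053, plus strand: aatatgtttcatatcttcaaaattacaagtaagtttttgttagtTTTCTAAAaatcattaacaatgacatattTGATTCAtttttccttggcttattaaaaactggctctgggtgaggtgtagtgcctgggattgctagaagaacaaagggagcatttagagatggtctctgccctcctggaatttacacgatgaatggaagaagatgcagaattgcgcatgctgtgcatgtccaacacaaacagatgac

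All 3 motifs were searched on both strands, and the printed matches did not overlap a match of another motif. Counting a gene where any of its start sites had a match, TGANTCA occurred in 6 of the 20 injury promoters (Anxa2, Cp, Plaur, Prom1, S100a11 and Sprr1a), of which Anxa2 and Cp were called, and in 7.82% of 27025 genes with a promoter of the same length. The NF-kappaB-type motif occurred in 14 of the 20 and in 48.7% of all genes, and TTNNGNAA in 12 of the 20 and in 40.3%. Of the other lists searched, TGANTCA occurred in 1 of 18 matrix, 0 of 20 immediate early and 0 of 14 pericyte and smooth muscle promoters. These are matches of letters and show no binding.

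Interstitial matrix was the class with most called members. Of 31 measured collagen and fibrosis matrix genes, 11 were higher with losartan than in wild type and 0 lower, beside 0.401% and 0.149% of all probe sets. The median difference of the list was 0.72 (2.10 in Alport vehicle). The 11 were Col3a1, Mgp, Tnc, Fbln1, Dcn, Col1a1, Col1a2, Lox, Fn1, Sparc and Bgn. The mean level of the list was 7.0 to 7.17 in wild type, 7.96 to 8.31 with losartan and 9.50 to 9.81 with Alport vehicle. Between 7 and 9 members were called when 1 sample was left out.

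Col3a1, the fibrillar collagen of soft interstitial scar, read 6.81, 6.89 and 6.43 in wild type, 10.35, 9.07 and 9.90 with losartan and 12.87, 12.83 and 12.80 with Alport vehicle. The losartan samples lay between the other 2 groups, and their difference from wild type was 3.06 ± 0.32 or 8.36-fold (limma adjusted p = 0.000125). Col1a1, which forms the main chain of type I collagen, read 5.42, 5.78 and 5.52 in wild type and 7.92, 7.16 and 7.82 with losartan, a 4.17-fold difference (2.06 ± 0.38, limma adjusted p = 0.0221). Its wild type values were dim, and the call was lost in 5 of the 6 fits without 1 sample, all but the one without losartan sample 2 (adjusted p up to 0.123). Its partner chain Col1a2 differed by 1.88 ± 0.31, and that call was lost without wild type sample 1 or 3 or losartan sample 1 (up to 0.0716).

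Matrix proteins that bind or space collagen were higher too. Mgp, the matrix Gla protein that inhibits calcification, read 10.11, 10.14 and 10.28 in wild type and 13.63, 12.62 and 12.73 with losartan, a 7.05-fold difference (2.82 ± 0.28, limma adjusted p = 9.18e-05). Decorin (Dcn), a small proteoglycan of collagen fibrils, was 4.89-fold higher, with 11.29, 11.10 and 11.07 against 13.81, 13.13 and 13.39. Tenascin C (Tnc), a glycoprotein of wounds and remodelling tissue, was 5.58-fold higher, with 6.32, 6.54 and 6.27 against 9.57, 8.64 and 8.36. No sample of one group reached the other for any of these genes.

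Fibulin 1 (Fbln1) differed by 2.41 ± 0.23, osteonectin (Sparc) by 1.67 ± 0.23, and dermatopontin (Dpt), a collagen-binding protein outside the list, by 2.27 ± 0.32. Col3a1, Mgp, Dcn, Tnc, Fbln1, Sparc and Dpt were called under every alternative setting. The crosslinking enzyme lysyl oxidase (Lox) was 1.75 ± 0.28 higher, fibronectin (Fn1) 1.68 ± 0.32 and biglycan (Bgn) 1.30 ± 0.24. The call of Lox held in the 6 fits without 1 sample, that of Fn1 in none (limma adjusted p up to 0.145), and that of Bgn was lost without wild type sample 2 or 3 or losartan sample 1 or 2 (up to 0.150). The other 20 matrix genes were not called. A mean above wild type was found for 10891 of all 22206 probe sets and for 17 of these 20 genes. Among them were thrombospondin 2 (Thbs2, 1.25) and the crosslinking enzyme Loxl1 (0.80), which were called in the fit of only the 6 samples (limma adjusted p = 0.00280 and 0.0438), and periostin (Postn, 0.32), the growth factor target Ccn2 (0.20) and the collagen VI chain Col6a3 (-0.02). For 11 of the 31 the interval lay within 2-fold of wild type, beside 92.1% of all probe sets.

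**Figure D2:**
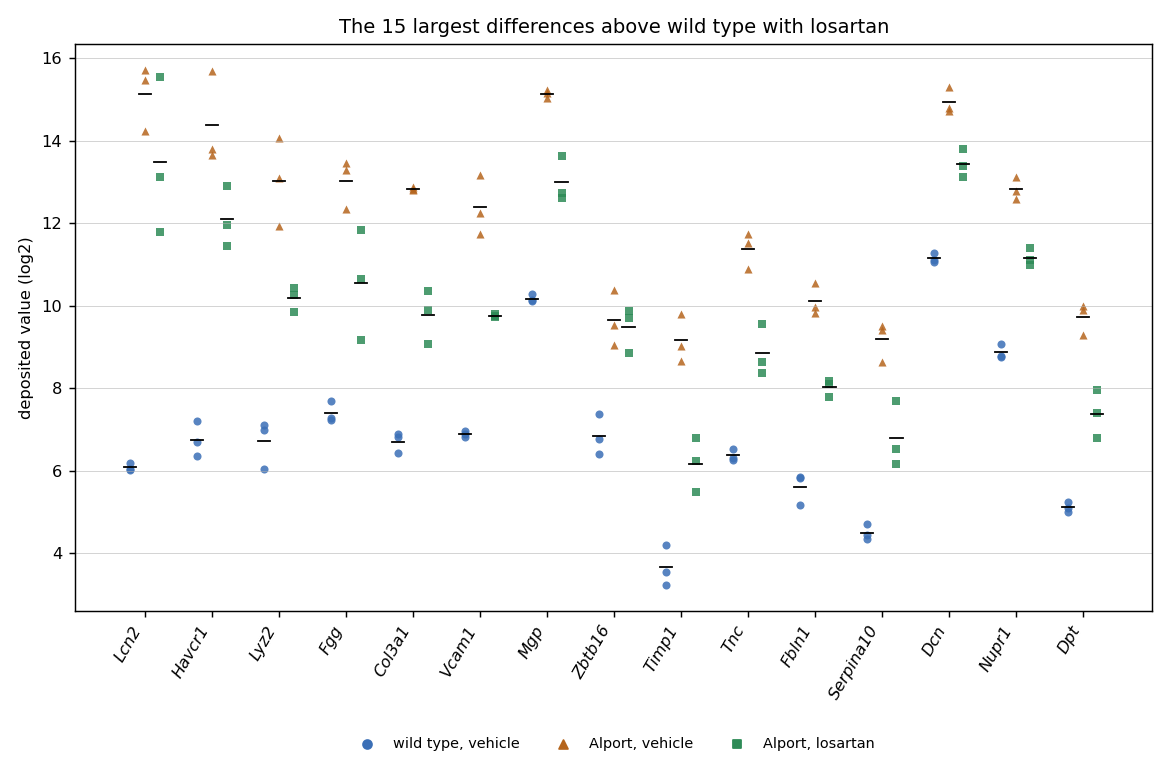
Deposited values (log2) of the 15 named genes with the largest differences above wild type among those called, in the 3 samples each of wild type vehicle (circles), Alport vehicle (triangles) and Alport losartan (squares); black bars are group means. Only genes without overlap of losartan and wild type samples were taken, so by this choice all losartan squares lie above all wild type circles. Most squares lie below the vehicle triangles, while 2 of the Zbtb16 squares and losartan sample 1 of Lcn2 lie within the vehicle range.

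Among 21 matrix proteases and their inhibitors 3 were higher and 0 lower, beside 0.401% and 0.149% of all probe sets. In the fit of only the 6 samples 7 were higher and 1 lower, beside 221 and 64 of all 22206 probe sets. Timp1, the inhibitor of metalloproteinases, read 3.54, 4.20 and 3.24 in wild type and 6.79, 5.50 and 6.24 with losartan (difference 2.52 ± 0.46, limma adjusted p = 0.0203). No fold is given because its wild type mean was under each sample's lower quartile, and the call was lost without wild type sample 1 or 3 or losartan sample 1 or 3 (adjusted p up to 0.145). Plat, the tissue plasminogen activator, was 2.26-fold higher (9.66, 9.57 and 9.60 against 10.80, 10.94 and 10.62), and Ctsk, the collagen-degrading cathepsin K, 2.43-fold (5.55, 5.31 and 5.46 against 6.57, 6.67 and 6.92). Both calls held under every alternative. Of 20 genes of TGF-beta signalling 0 were called. Tgfb1 itself read 9.67, 10.03 and 9.74 in wild type and 10.83, 10.22 and 10.72 with losartan, a difference of 0.78 ± 0.29 (limma adjusted p = 0.307), and the target Tgfbi differed by 1.32 ± 0.30 (0.0595), a difference that passed under 5 of 13 alternatives (0.0161 in the fit of only the 6 samples) and in no fit without 1 sample.

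In the basement membrane list, which holds the disease gene and its partners, 1 of 24 members was lower and 0 were higher. Over all probe sets 0.149% were lower. Col4a5 read 5.06, 5.83 and 5.40 in wild type and 4.64, 4.24 and 4.09 with losartan, all dim values, and differed by -1.11 ± 0.23 (limma adjusted p = 0.0440). The groups did not overlap, but the call was lost without wild type sample 2 or 3 or any one losartan sample (adjusted p up to 0.177). Col4a3 and Col4a4, which join Col4a5 in the glomerular network, differed by -0.04 and -0.24, and Col4a1, of the network laid down in development and in vessels, by 0.69 (limma adjusted p = 0.0939); none of these was called. The median of the list was 0.05 with losartan and 0.66 with Alport vehicle. For 20 of the 24 the interval lay within 2-fold of wild type, beside 92.1% of all probe sets.

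Myeloid genes were higher in level with losartan, but most did not pass the test. Over all probe sets 0.401% were called higher. Of 24 macrophage and myeloid markers 2 were called higher, Lyz2 and C1qc, while the median difference of the list was 0.97, the largest median of the 45 lists (2.07 in Alport vehicle). The mean level of the 24 markers was 6.12 to 6.40 in wild type, 7.02 to 7.42 with losartan and 7.73 to 8.91 with Alport vehicle. Members varied far more within the other Alport groups, with a median SD of 0.61 in vehicle and 0.66 in metformin samples against 0.22 in wild type and 0.31 with losartan. The fit of only the 6 samples leaves these groups out. There 12 of the 24 were called higher, beside 221 of all 22206 probe sets. Among the 12 were Mrc1 (1.40, limma adjusted p = 0.00347), C1qb (1.36) and Ctss (1.77).

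Lyz2, the lysozyme of macrophages and other myeloid cells, read 7.0, 7.11 and 6.05 in wild type, 10.44, 9.84 and 10.26 with losartan and 13.09, 11.93 and 14.06 with Alport vehicle. It was 11.0-fold higher than in wild type (3.46 ± 0.49, limma adjusted p = 0.00348), with an adjusted p of 0.0554 with the trend and robust options of eBayes. C1qc, a chain of the complement recognition molecule made by tissue macrophages, was 2.82-fold higher, from 5.16, 5.07 and 4.97 to 6.96, 6.20 and 6.52 (1.49 ± 0.32, limma adjusted p = 0.0454), and its call was lost in all 6 fits without 1 sample (adjusted p up to 0.221). The growth factor receptor Csf1r (-0.00), the lipid receptor Trem2 (0.00) and the scavenger receptor Cd163 (0.06) of macrophages were near their wild type means.

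Of 10 MHC class II genes 0 were called, with a median difference of 0.66 (2.26 in Alport vehicle). H2-Eb1, the gene with the smallest p among them, differed by 0.96 ± 0.39 (limma adjusted p = 0.361). No member was called among 20 T and NK cell genes (median 0.05), 15 B and plasma cell genes (0.07) and 12 neutrophil genes (0.07). Such counts of 0, also that of MHC class II, are near the 0.549% called over all probe sets. In wild type and losartan samples 4 and 5 of the T and NK cell markers were under the lower quartile in each sample, and 6 and 5 of the neutrophil markers.

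Inflammatory mediators left 1 call, beside 0.401% of all probe sets higher. Of 36 cytokines and chemokines 1 was higher, Cx3cl1, the membrane-bound chemokine fractalkine, at 9.55, 9.31 and 9.38 in wild type and 10.48, 10.78 and 10.19 with losartan. The 2.10-fold difference (limma adjusted p = 0.0193) was lost without wild type sample 2 or 3 or losartan sample 1 or 2 (adjusted p up to 0.112). Of 31 interferon response genes 0 were called, with a median difference of 0.28.

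Among 21 complement genes 3 were higher and 1 lower, beside 0.401% and 0.149% of all probe sets. In the fit of only the 6 samples 7 were higher and 1 lower, beside 221 and 64 of all 22206 probe sets. C7, a component of the membrane attack complex, was 3.84-fold higher, with 8.67, 7.85 and 7.82 in wild type and 10.32, 10.22 and 9.62 with losartan (1.94 ± 0.31, limma adjusted p = 0.00893). Its call was lost without wild type sample 2 or 3 or losartan sample 1 (adjusted p up to 0.0699). Serping1, the inhibitor of the first complement component, was 2.66-fold higher, and C8g, the small chain of component C8, differed by -1.10 ± 0.21. Each of these calls was lost in 5 of the 6 fits without 1 sample, that of Serping1 in all but the one without losartan sample 3 (up to 0.145) and that of C8g likewise (up to 0.162).

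In the coagulation list of 23 genes, 2 were higher and 1 lower, beside 0.401% and 0.149% of all probe sets. Fgg, the gamma chain of fibrinogen, read 7.24, 7.70 and 7.28 in wild type, 11.83, 9.16 and 10.66 with losartan and 13.28, 12.35 and 13.45 with Alport vehicle. The losartan samples were spread over 2.67 log2 units, yet the lowest lay above every wild type sample. The 8.84-fold difference (3.14 ± 0.62, limma adjusted p = 0.0323) became 5.67-fold without losartan sample 1 and 14.3-fold without losartan sample 2, and only that last fit of the 6 kept the call (adjusted p up to 0.162). Hrg, the plasma protein histidine-rich glycoprotein, had the largest negative difference among called genes with a symbol, at 9.95, 10.05 and 9.95 in wild type, 8.13, 8.62 and 8.74 with losartan and 5.52, 6.44 and 6.25 with Alport vehicle. The difference of -1.49 ± 0.32 (limma adjusted p = 0.0489) was lost in all 6 fits without 1 sample (up to 0.187). Serpina10, a circulating inhibitor of clotting factor X outside the list, was 4.94-fold higher (2.30 ± 0.46), from dim wild type values of 4.44, 4.72 and 4.34, and only the fit without losartan sample 3 kept its call (adjusted p up to 0.174).

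In stress and growth programmes at most 1 gene of a list was called, beside 0.401% of all probe sets higher. A mean above wild type was found for 23 of 28 members of the ATF4 and stress list, beside 10891 of all 22206 probe sets. It was also found for 19 of 25 immediate early genes and 27 of 30 cell cycle genes. Nupr1, a small chromatin-bound protein induced by cell stress, was the 1 gene of 28 on the ATF4 and stress list that was called, at 8.79, 9.07 and 8.75 in wild type and 11.39, 11.11 and 10.98 with losartan. Its difference was 2.29 ± 0.19, or 4.89-fold, with the lowest limma adjusted p among genes with a symbol, 1.91e-05. Egr2, a growth-induced transcription factor, was the 1 of 25 immediate early genes called, 2.45-fold higher (1.29 ± 0.28, limma adjusted p = 0.0491), and its call was lost in all 6 fits without 1 sample (up to 0.165). In the fit of only the 6 samples 4 of the 25 were called higher, beside 221 of all 22206 probe sets. The 4 were Egr1 (1.40, limma adjusted p = 0.0139), Myc (1.14), Fosl2 (0.82) and Egr2. Of 30 cell cycle genes 0 were called, with a median difference of 0.35 against 1.39 in Alport vehicle. The mean level of the cell cycle list was 5.28 to 5.38 in wild type, 5.59 to 5.83 with losartan and 6.64 to 6.82 with Alport vehicle, so the losartan samples lay above wild type and far below vehicle. None of 19 p53 and senescence genes was called, and Cdkn1a, the cell cycle inhibitor p21, differed by 0.97 ± 0.40 (limma adjusted p = 0.376).

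**Figure D3:**
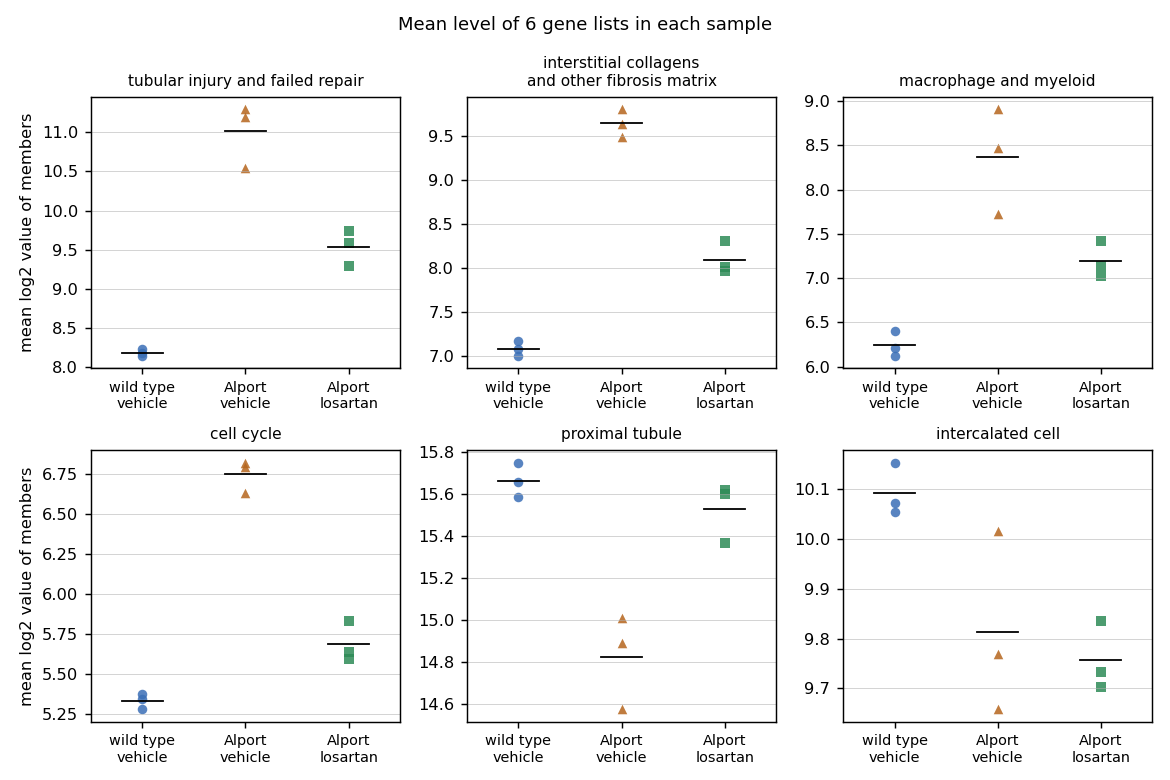
Mean deposited value (log2) over the measured members of 6 gene lists in each sample of wild type vehicle, Alport vehicle and Alport losartan, with black bars for group means; the vertical axes differ in range and do not start at 0. In the injury, matrix, macrophage and cell cycle lists the 3 losartan samples lie above the wild type samples and below the vehicle samples, and in the intercalated cell list they lie below wild type, at 9.70 to 9.84 against 10.1 to 10.2.

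In the glomerulus, 2 of 25 podocyte genes were higher and 0 lower, beside 0.401% and 0.149% of all probe sets. Synpo, the actin-binding protein synaptopodin of podocyte foot processes, read 8.99, 8.82 and 8.56 in wild type, 10.17, 10.22 and 10.28 with losartan and 10.63, 10.52 and 10.25 with Alport vehicle. It was 2.70-fold higher than wild type (1.43 ± 0.16, limma adjusted p = 0.000405), was called under every alternative, and differed from vehicle by -0.24 ± 0.16 (0.459), with a 95% interval of -0.59 to 0.11. Nes, the intermediate filament nestin, was 2.35-fold higher, and its call was lost in all 6 fits without 1 sample (up to 0.237). Nphs1, which encodes the slit diaphragm protein nephrin, differed by -0.26 ± 0.20 (limma adjusted p = 0.730). All 24 endothelial genes had intervals within 2-fold of wild type and 0 were called, near the 92.1% and 0.549% of all probe sets.

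Of 18 pericyte and smooth muscle genes 1 was higher, beside 0.401% of all probe sets. Tagln, the actin-binding protein transgelin, read 9.08, 8.40 and 8.57 in wild type and 10.37, 10.43 and 10.05 with losartan, a 3.03-fold difference (1.60 ± 0.24, limma adjusted p = 0.00526) called under every alternative. Acta2, the smooth muscle actin that also marks myofibroblasts, read 11.12, 10.04 and 10.36 in wild type and 11.33, 12.16 and 12.26 with losartan. Its groups did not overlap, but the difference of 1.41 ± 0.32 did not pass the test (limma adjusted p = 0.0654). It passed with array weights (0.0243), in the fit of only the 6 samples (0.0396) and without wild type sample 1 (0.0427).

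Among the tubule segments, called genes lay in the list of intercalated cells, which secrete acid or base in the collecting duct. Of 19 intercalated cell genes 3 were lower and 0 higher, beside 0.149% of all probe sets lower, and the median difference was -0.22 (-0.43 in Alport vehicle). The mean level of the list was 10.1 to 10.2 in wild type, 9.70 to 9.84 with losartan and 9.66 to 10.02 with Alport vehicle.

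Insrr, an insulin receptor relative that senses alkaline pH, read 8.90, 8.70 and 9.34 in wild type, 7.33, 7.57 and 7.60 with losartan and 7.09, 7.66 and 6.82 with Alport vehicle. The losartan values overlapped those of vehicle and lay below all wild type samples. The difference from wild type was -1.48 ± 0.23, a 2.79-fold lower level (limma adjusted p = 0.00580), and Insrr was the one named gene with a lower level that was called under every alternative. Foxi1, the transcription factor that specifies intercalated cells, read 10.83, 10.95 and 11.21 in wild type and 9.83, 10.16 and 10.05 with losartan, a difference of -0.98 ± 0.19 (limma adjusted p = 0.0246). Slc4a9, an anion exchanger of base-secreting intercalated cells, read 10.21, 10.11 and 10.61 against 9.53, 9.23 and 9.30, a difference of -0.96 ± 0.18 (0.0246). The call of Foxi1 held only without wild type sample 1 among the 6 fits that left out a sample (up to 0.162), and that of Slc4a9 in none of them (0.0525 to 0.162).

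In the other tubule segments no gene was called, near the 0.549% called over all probe sets. Of 44 proximal tubule genes 0 were called, the median difference was -0.16 (-0.85 in Alport vehicle), and 40 had intervals within 2-fold, a share near the 92.1% of all probe sets. The mean level of the 44 was 15.6 to 15.8 in wild type, 15.4 to 15.6 with losartan and 14.57 to 15.01 with Alport vehicle, and losartan sample 1 was the lowest of its group. Slc34a1, the main phosphate transporter of the brush border, read 19.19, 19.15 and 19.11 in wild type and 18.92, 18.93 and 18.84 with losartan, a difference of -0.25 ± 0.15 (limma adjusted p = 0.600). Hnf4a, a transcription factor that maintains proximal tubule identity, differed by -0.10 ± 0.16, with -1.31 in Alport vehicle. Umod, the uromodulin of the thick ascending limb, differed by 0.18 ± 0.15. None of 18 genes of the loop of Henle, 16 of the distal convoluted tubule and 17 of the principal cell was called, and 13, 15 and 11 of them had intervals within 2-fold. The tight junction gene Cldn4 of the loop list differed by 1.23 ± 0.34 (limma adjusted p = 0.148, and 0.0208 in the fit of only the 6 samples), and the urea transporter gene Slc14a2 of the collecting duct by 1.35 ± 0.46 (0.249).

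Metabolic classes left 0 calls, near the 0.549% called over all probe sets. They comprised 39 fatty acid oxidation genes (median -0.07), 26 of the citric acid cycle (-0.03), 40 of the respiratory chain (-0.10), 22 of cholesterol synthesis (-0.05), 46 of amino acid catabolism (-0.22) and 29 of glucose metabolism (0.03). In Alport vehicle the medians of the fatty acid, cholesterol and amino acid lists were -0.65, -0.80 and -1.01. The intervals of 35 of 39, 20 of 22 and 39 of 46 members lay within 2-fold of wild type with losartan, shares near or below the 92.1% of all probe sets. In the amino acid list 38 of 46 members had a mean below wild type, beside 11288 of all 22206 probe sets. Losartan sample 1 had the lowest mean level of the list, 11.4 against 11.6 in the other 2 losartan samples and 11.7 in wild type.

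**Figure D4:**
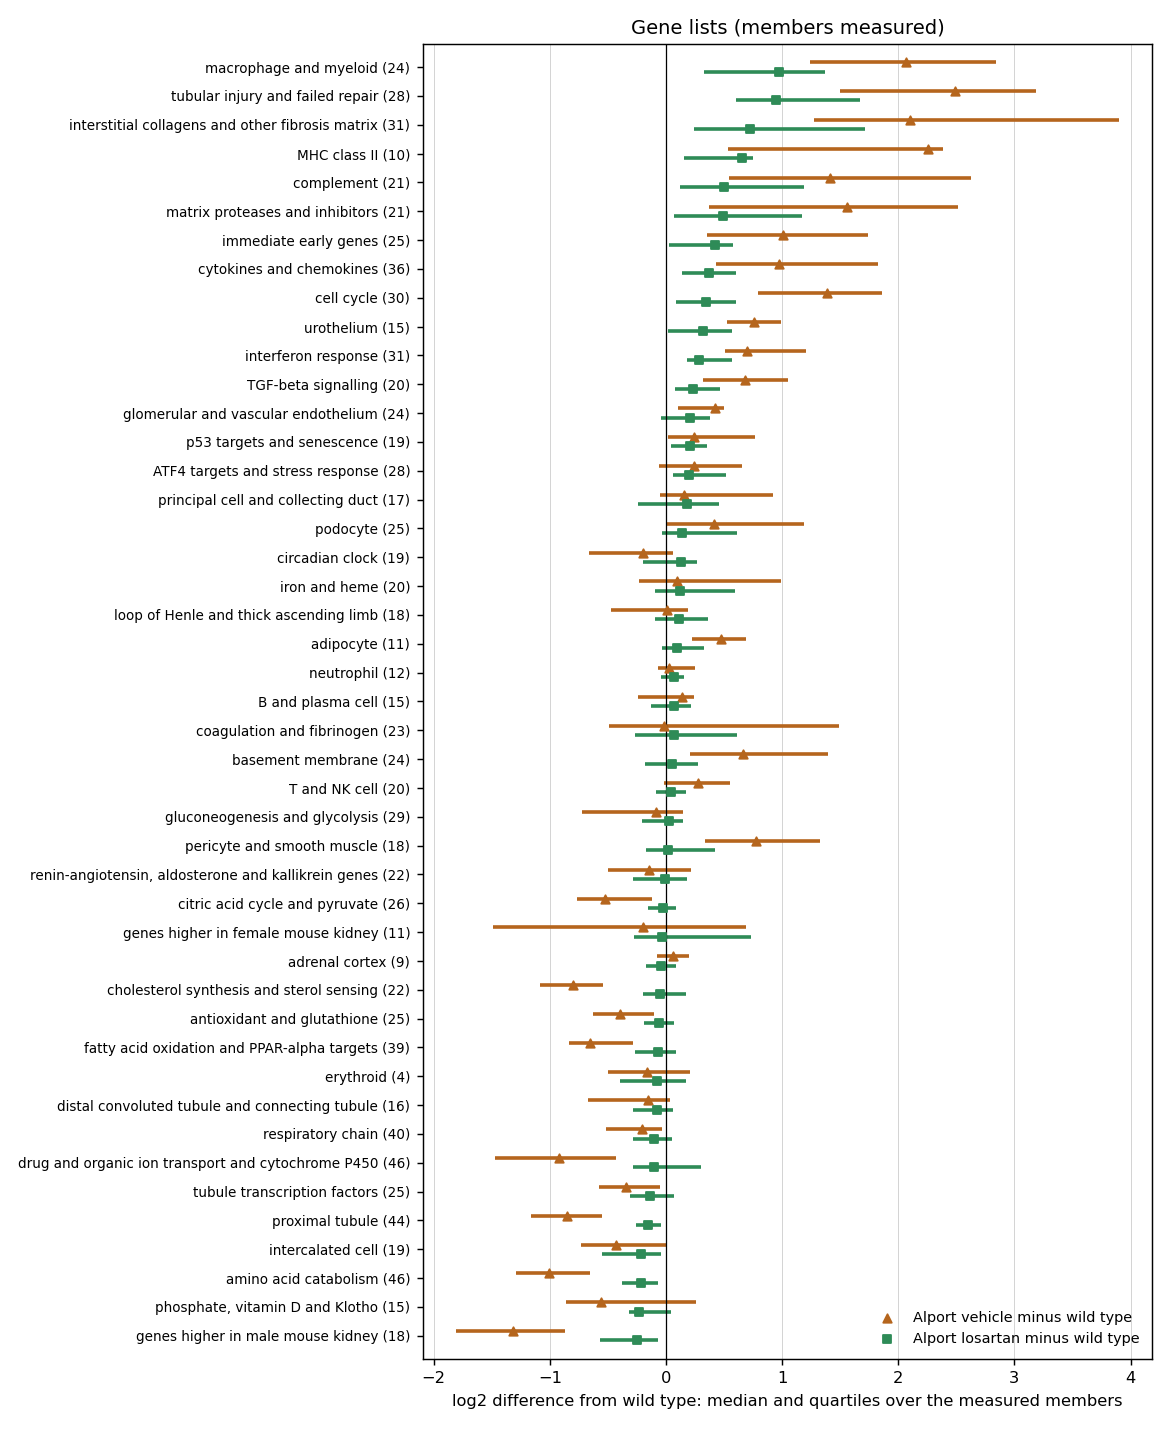
Median (symbol) and quartiles (line) of the log2 difference from wild type over the measured members of each of the 45 gene lists, for Alport losartan (squares) and Alport vehicle (triangles), which share the wild type samples; the number of measured members stands in parentheses. The losartan medians lie between -0.25 and 0.97, highest for the macrophage, injury and matrix lists.

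Drug transporters and cytochrome P450 enzymes were not called in any of 46 cases, near the 0.549% called over all probe sets. The intervals of 33 lay within 2-fold and those of 13 reached beyond it. Over all probe sets 92.1% lay within 2-fold. Cyp24a1, the enzyme that breaks down active vitamin D, was the member with the largest difference and varied widely, at 12.40, 13.29 and 13.18 in wild type and 10.71, 12.24 and 8.98 with losartan (-2.31 ± 0.61, limma adjusted p = 0.124). Cyp4a12a, a male-biased kidney enzyme that hydroxylates fatty acids, read 15.36, 14.81 and 14.89 in wild type, 13.43, 13.90 and 13.34 with losartan and 10.88, 10.79 and 11.40 with Alport vehicle. Its groups did not overlap, and its difference of -1.46 ± 0.33 stood just outside the threshold (limma adjusted p = 0.0592), with 0.00447 in the fit of only the 6 samples. Its near-identical copy Cyp4a12b can share signal on the array. Of 18 genes higher in male mouse kidney 0 were called, again beside 0.549% of all probe sets. Their median was -0.25 (-1.31 in Alport vehicle), the lowest median of the 45 lists with losartan.

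Of 20 iron and heme genes 2 were higher, Lcn2 and Cp described above, and 0 lower, beside 0.401% and 0.149% of all probe sets. Of 15 phosphate, vitamin D and Klotho genes 1 was lower and 0 higher. Vdr, the vitamin D receptor, read 13.85, 14.11 and 14.44 in wild type, 13.16, 13.41 and 13.09 with losartan and 13.01, 13.20 and 13.19 with Alport vehicle. It was 1.88-fold lower than wild type (-0.91 ± 0.17, limma adjusted p = 0.0247), and the call was lost without wild type sample 2 or 3 or losartan sample 1 or 3 (up to 0.162). Of 22 genes of the renin-angiotensin, aldosterone and kallikrein systems, to which the drug target belongs, 0 were called, beside 0.549% of all probe sets. The angiotensin receptor gene Agtr1a read 12.87, 12.55 and 12.44 in wild type and 11.76, 12.32 and 12.29 with losartan (-0.50 ± 0.22, limma adjusted p = 0.425), and Ace, the angiotensin-converting enzyme, differed by -0.58 ± 0.22 (0.305). The clock, antioxidant, urothelium, adipocyte, erythroid and adrenal lists held 0 called genes, near the 0.549% called over all probe sets.

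**Figure D5:**
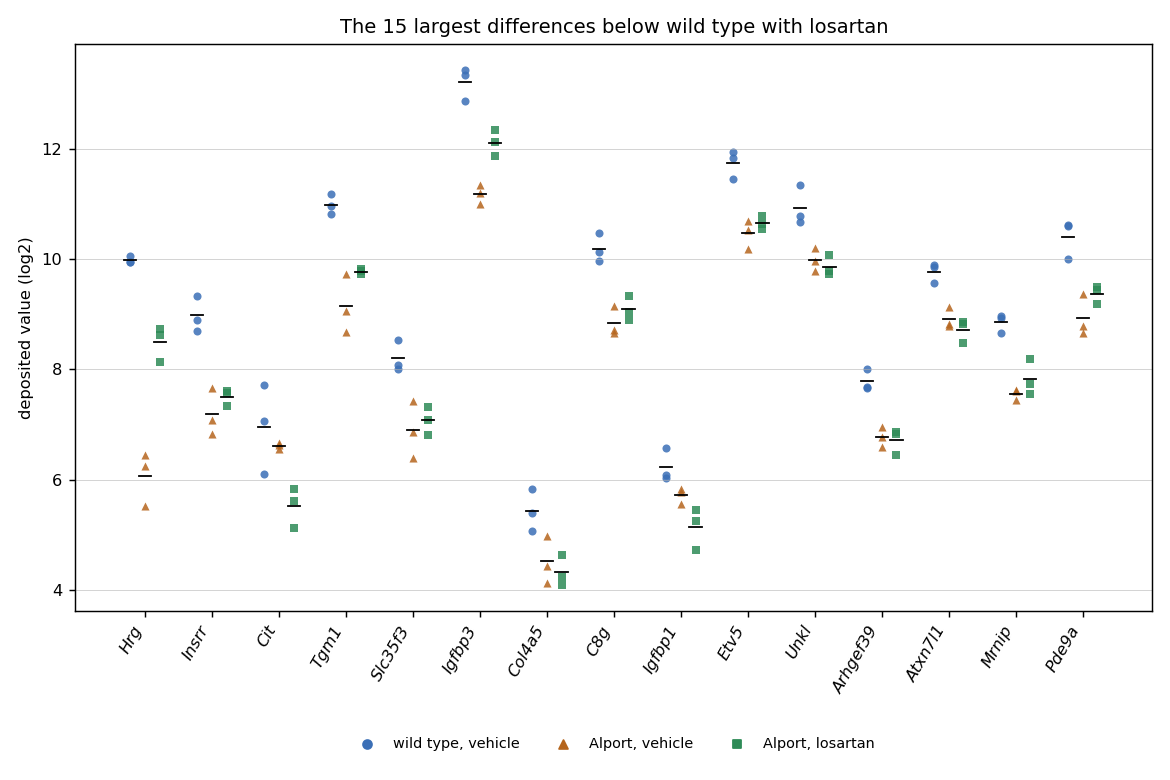
Deposited values (log2) of the 15 named genes with the largest differences below wild type among those called, in the 3 samples each of wild type vehicle (circles), Alport vehicle (triangles) and Alport losartan (squares); black bars are group means. Only genes without overlap of losartan and wild type samples were taken, so by this choice all losartan squares lie below all wild type circles. For most genes, though not for Hrg, Igfbp3 or Cit, the squares lie near the vehicle triangles.

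Of the 28 called genes with a symbol that were lower, 21 were in none of the lists. The lists matched 964 genes beside 19505 distinct symbols on the array, so most symbols lie outside them. Tgm1, a protein-crosslinking transglutaminase, differed by -1.21 ± 0.24 (10.82, 10.96 and 11.19 in wild type against 9.73, 9.82 and 9.78). Igfbp3, a carrier of insulin-like growth factors, differed by -1.11 ± 0.20, with 12.88, 13.35 and 13.44 against 12.35, 12.13 and 11.87, and its relative Igfbp1 by -1.09 ± 0.21. Etv5, a transcription factor downstream of receptor tyrosine kinases, differed by -1.08 ± 0.20, and Pde9a, a phosphodiesterase of cyclic GMP, by -1.03 ± 0.22. The groups did not overlap for any of them. Their limma adjusted p-values lay between 0.0224 and 0.0441. The call of Tgm1 was lost in all 6 fits without 1 sample (up to 0.197). Those of Etv5 (up to 0.153), Pde9a (up to 0.240), Igfbp1 (up to 0.118) and Igfbp3 (up to 0.150) were lost in 5, 5, 5 and 4 of them. The fits that kept the call were the one without wild type sample 1 for Etv5, without wild type sample 2 for Pde9a, without losartan sample 1 for Igfbp1, and without wild type sample 1 or losartan sample 1 for Igfbp3. Slc35f3, Unkl and Arhgef39, with differences of -1.13, -1.07 and -1.07, lost their calls in all 6 fits (up to 0.240, 0.189 and 0.237), Mrnip (-1.03) in all but the one without losartan sample 2 (up to 0.164), and Atxn7l1 (-1.05) without wild type sample 2 or losartan sample 3 (up to 0.0621).

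Zbtb16 stood about as far from wild type with losartan as with vehicle. This zinc finger transcription factor, also known as PLZF, read 6.40, 6.77 and 7.38 in wild type, 9.88, 9.70 and 8.86 with losartan and 9.05, 9.54 and 10.39 with Alport vehicle. Its difference from wild type was 2.63 ± 0.36 or 6.19-fold (limma adjusted p = 0.00315) and was called under every alternative, and losartan minus vehicle was -0.18 ± 0.36 (0.847). The 95% interval of that last difference ran from -0.94 to 0.58, which does not show that the groups were alike.

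For 3 called genes the vehicle mean lay within 0.5 of wild type. Cit, the citron kinase of cell division, read 6.10, 7.06 and 7.71 in wild type, 5.13, 5.83 and 5.61 with losartan and 6.66, 6.63 and 6.56 with Alport vehicle. It differed from wild type by -1.43 ± 0.30 (limma adjusted p = 0.0440) and from vehicle by -1.09 ± 0.30 (0.0346), and was the 1 named gene called in both comparisons in the same direction. Its call against wild type held only without wild type sample 1 among the fits that left out a sample (up to 0.230), and it was not called in the fit of only the 6 samples or with the replicate number as a block. Nxph3, a secreted ligand of neurexins, was 1.94-fold higher with losartan (5.26, 5.11 and 5.23 in wild type, 6.28, 6.08 and 6.10 with losartan, 5.85, 5.81 and 5.38 with vehicle), and Ccdc3 1.76-fold (4.87, 5.04 and 5.04 against 5.65, 5.99 and 5.77). Both were dim. The call of Nxph3 was lost without wild type sample 2 or 3 or losartan sample 1 (limma adjusted p up to 0.0827), and that of Ccdc3 in all 6 fits without 1 sample (up to 0.142).

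At the other end are genes that were far from wild type with Alport vehicle and whose interval with losartan lay within 2-fold of wild type. They were chosen for this pattern, so their values are a description without a test. Jchain, the joining chain of antibodies made by plasma cells, read 5.34, 5.36 and 5.20 in wild type, 4.94, 4.79 and 5.44 with losartan and 8.03, 7.57 and 8.57 with Alport vehicle. Bub1b, a mitotic checkpoint kinase, read 4.34, 3.97 and 3.83, then 3.55, 4.02 and 4.57, and 6.32, 6.65 and 6.65 in the same order of groups. The losartan samples of both genes overlapped wild type and lay clear of vehicle.

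Lgals1, a galactoside-binding lectin, differed from wild type by 0.48 with losartan and 2.22 with vehicle, and Cd52, a surface glycoprotein of leukocytes, by 0.48 and 2.33. Mxra8, a cell adhesion protein of matrix-rich tissue, differed by 0.21 and 2.34. On the lower side, Slc22a19 and Slc22a26, organic anion transporters of the kidney, differed by -0.03 and 0.02 with losartan and by -2.53 and -2.23 with vehicle. Cyp2d9 and Cyp2d12, cytochrome P450 enzymes with close relatives on the array, differed by -0.35 and -0.15 with losartan and by -2.36 and -2.37 with vehicle.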

How the data were processed

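Whole-kidney RNA of 12 mouse samples had been measured on Affymetrix Clariom S arrays. The values deposited by the authors are on a log2 scale, as their range of 2.3 to 19.88 shows, with 1 per probe set. They were made with Transcriptome Analysis Console 4.0, per the submitters' processing notes. Background correction and normalization: not given in the sources used here. Gene symbols came from the platform annotation, whose Entrez identifiers were checked against a RefSeq table of GRCm38.p6: 19572 had 1 symbol and 2634 none. Of the 55 symbols with more than 1 probe set, lists took the one with the highest mean, and 964 of 1044 list genes were matched. Near-identical genes can share signal.

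The model had a mean per group and used all 12 samples (lmFit and eBayes of limma 3.58.1 in R 4.3.3; 8 residual degrees of freedom). All tests were two-sided, with Benjamini-Hochberg adjustment over all 22206 probe sets and a threshold of 0.05. Errors are standard errors from this fit, intervals are 95% intervals, and folds are 2 to the power of the log2 difference. The fit was tested on simulated data. The members, the 45 gene lists and the rules were chosen with earlier results of these data known. The genes named are a fixed set of 9, the 15 largest differences in each direction among called genes, up to 4 members of each list with the smallest p and the member with the highest mean, genes called in the same direction against vehicle, called genes with a vehicle mean within 0.5 of wild type, and 10 genes far from wild type with vehicle but within 2-fold of it with losartan. The largest differences were taken only among genes whose losartan and wild type samples did not overlap, which held for every called gene. Other called genes, and list members named as not called, were chosen after their values were seen.

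Alternatives were array weights, median centring of samples, quantile normalization again, omission of the dimmest part (1 in 3) of probe sets, eBayes with its trend and robust options, fitting only the 2 groups, the replicate number as a block, an unadjusted p with a 2-fold difference, and omission of each sample in turn. The number of arrays, 3 per group, limits the precision; no slide or scan date was used here.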

Additional observations from a re-analysis of the deposited data

How the results depend on the processing

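The count of 122 probe sets (89 higher, 33 lower) became 195 (135 and 60) with array weights and 285 (221 and 64) in a fit of only the 2 groups, which kept 122 and 117 of the 122. An unadjusted p under 0.05 with a 2-fold difference gave 236, of which 197 were higher. Leaving out 1 sample, which leaves 2 in a group, gave 37 to 62 in all, 31 to 54 higher and 5 to 15 lower. With the replicate number as a replicate block the counts were 108, 83 and 25. Deviations of same-numbered samples from their group means correlated at -0.14, -0.10 and -0.089, and those of the other pairs at -0.0019 to 0.095. Because such deviations sum to 0 within a group, these values cannot show whether same-numbered samples were handled together. The labels state no pairing. Of the 122, 27 were called under all of 13 alternatives. Of 50 named genes called, 17 held under every alternative and 33 were lost under at least 1, and 0 of these 50 changed direction; 26 others were gained under at least 1. Dim probe sets limit the size of folds.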

Other observations

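Called genes outside every list, chosen here after their values were seen, included the following single genes. The Toll-like receptor genes Tlr7, Tlr2 and Tlr13 were higher with losartan than in wild type by 2.10 ± 0.37, 1.44 ± 0.30 and 1.25 ± 0.22 on the log2 scale (limma adjusted p = 0.0190, 0.0430 and 0.0149), and Ncf1, a subunit of the phagocyte oxidase, by 0.88 ± 0.17. Tlr7 read 5.85, 5.59 and 5.43 in wild type and 7.58, 7.52 and 8.06 with losartan. Osmr, the receptor chain for oncostatin M, differed by 1.76 ± 0.31, and the transcription factor Cebpd by 0.80 ± 0.17. Muc1, a transmembrane mucin of distal tubules, differed by 2.01 ± 0.35 (10.74, 10.24 and 10.57 against 12.76, 12.83 and 12.00), Cygb, a globin of fibroblasts and stellate cells, by 2.23 ± 0.24, and Aldh1a2, which makes retinoic acid, by 1.96 ± 0.37. Arpc1b, Tpm1, Gsn and Myo1e, which encode actin-associated proteins, differed by 1.27, 1.11, 1.02 and 0.82.

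The near-identical genes of a dynein light chain, Dynlt1a, Dynlt1b, Dynlt1c and Dynlt1f, differed by 1.19, 1.25, 1.20 and 1.12 and may share signal on the array. Sema3e, a secreted guidance protein, differed from wild type by 1.44 with losartan and 1.54 with Alport vehicle, Acsl4, an acyl-CoA synthetase for polyunsaturated fatty acids, by 1.13 and 1.31, and Rtn1, a protein of the endoplasmic reticulum, by 1.35 and 1.23. Lower genes included the growth factor receptor Fgfr3 (-0.97), the adaptor Grb7 (-0.92) and the signalling inhibitor Spred2 (-0.90), with -1.14, -1.30 and -0.69 in Alport vehicle. Of the genes of these paragraphs, Cygb and Dynlt1a were called in each of the 6 fits that left out 1 sample, Sema3e in all but the one without wild type sample 3 (limma adjusted p = 0.0674) and Acsl4 in all but those without wild type sample 2 or 3 (up to 0.0621). Arpc1b, Tpm1, Gsn, Myo1e, Aldh1a2, Cebpd, Rtn1 and Fgfr3 were called in none of them (up to 0.268). The calls of Tlr7 (kept only without wild type sample 1), Tlr2 (only without wild type sample 2), Ncf1 and Grb7 (only without losartan sample 2), Spred2 (only without wild type sample 1), and of Tlr13, Osmr and Muc1 (lost in 4 fits each) and Dynlt1b, Dynlt1f and Dynlt1c (lost in 3, 3 and 2) ended without single samples, with adjusted p up to 0.240.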
